A study of Mus musculus with 1528 samples.

Results

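Among bone marrow–derived macrophages (BMDMs) given TNF together with IL4+IL13, a large minority contained little or no Clec4e mRNA, although Clec4e was abundant in most of the other TNF-treated cells of the same plates. These weak Clec4e cells were selected on Clec4e alone: of 718 kept IL4+IL13+TNF cells, the 259 under 50 CPM (a gene's fragments per 1000000 gene fragments of the cell) were taken as members, and the 235 at 500 CPM or more were taken as the comparison. The 224 cells between these limits and the 721 kept IL4+IL13 cells complete the 1439 cells that passed the filters, out of 1524 wells of known group. The question was whether cells with weak Clec4e showed the rest of the TNF response. In the members the mean level of NF-kB feedback genes was above that of IL4+IL13 cells on all 4 plates. The sums of Saa3, Sod2 and Acod1 lay between those of the IL4+IL13 cells and of the high Clec4e cells in both mice. These genes were picked for low values in members or for following Clec4e, so their place below the high cells was largely fixed by that choice. Other genes raised with TNF, such as Birc3 and Tnip3, did not lie between in both mice.

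The cells were wild-type C57BL/6 BMDMs grown with CSF1, and 2 mice were used. All groups received IL4 and IL13, and the TNF group received TNF as well, each cytokine at 10 ng/ml for 24 h, so no unstimulated cells enter any comparison here. Live cells were sorted singly into 384-well plates, with plates 2 and 3 from mouse 1 and plates 4 and 5 from mouse 2, and every plate held both treatments in separate rows. Full-length Smart-seq2 libraries without molecular identifiers were sequenced, so PCR copies are counted too, and an interval on a share reflects only how many cells were counted. The replicate is the mouse, so each test below rests on 2 mice, and cells of a mouse are not replicates. The number of the mouse was read from the 1 or 2 in the sample titles, which do not say what this number stands for. The paper describes 2 independent experiments. A difference between the mice cannot be told apart from one between their plates or experiments. In counts summed over a class, fewer cells with a gene and less of its RNA per cell cannot be told apart.

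Clec4e encodes Mincle, a C-type lectin receptor of myeloid cells that binds mycobacterial and fungal glycolipids and the protein SAP130 released by dying cells. Mincle pairs with the adaptor chain FcRγ (Fcer1g) and signals through Syk and Card9 to NF-kB, and its gene is known as an inducible target of NF-IL6 (C/EBPβ) in stimulated macrophages. TNF binds its receptors TNFR1 and TNFR2, frees NF-kB from its IκB inhibitors, and within hours induces both inflammatory genes and the inhibitors that end the signal. IL4 and IL13 act through STAT6 and drive the alternative (M2) programme that includes Arg1, Retnla and Clec10a.

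Clec4e lies on chromosome 6 (chr6:123281789-123289870, minus strand, mm10) next to Clec4d (chr6:123262111-123275265, plus strand), which encodes the related receptor MCL. Clec4d, Saa3 and Sod2 were among the 10 genes that followed Clec4e most closely from cell to cell. The 250 bases before the annotated start of Clec4e and these genes are shown. The others of the 10 are not shown, so the 4 windows are examples. The sequences come from RefSeq (GRCm38.p6), are written 5′ to 3′ on the strand of the gene, and cover chr6:123289872-123290121 (Clec4e), chr6:123261857-123262106 (Clec4d), chr7:46715677-46715926 (Saa3) and chr17:13007589-13007838 (Sod2). Capitals mark matches, on either strand, to the C/EBP pattern TTNNGNAA or to the NF-kB consensus.
Clec4e: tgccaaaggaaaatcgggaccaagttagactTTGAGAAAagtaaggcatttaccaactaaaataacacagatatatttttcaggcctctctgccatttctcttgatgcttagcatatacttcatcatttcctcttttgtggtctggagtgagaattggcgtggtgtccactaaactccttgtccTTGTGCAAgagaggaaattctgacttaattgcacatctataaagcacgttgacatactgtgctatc
Clec4d: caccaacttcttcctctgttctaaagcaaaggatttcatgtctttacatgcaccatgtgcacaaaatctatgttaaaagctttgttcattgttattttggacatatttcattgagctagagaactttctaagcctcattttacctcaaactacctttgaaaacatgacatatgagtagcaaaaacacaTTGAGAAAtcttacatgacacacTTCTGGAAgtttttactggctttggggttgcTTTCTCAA
Saa3: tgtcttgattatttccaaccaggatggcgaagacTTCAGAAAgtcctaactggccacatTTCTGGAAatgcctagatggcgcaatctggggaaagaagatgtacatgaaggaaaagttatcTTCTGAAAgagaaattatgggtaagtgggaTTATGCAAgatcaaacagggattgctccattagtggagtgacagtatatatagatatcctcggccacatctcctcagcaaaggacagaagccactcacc
Sod2: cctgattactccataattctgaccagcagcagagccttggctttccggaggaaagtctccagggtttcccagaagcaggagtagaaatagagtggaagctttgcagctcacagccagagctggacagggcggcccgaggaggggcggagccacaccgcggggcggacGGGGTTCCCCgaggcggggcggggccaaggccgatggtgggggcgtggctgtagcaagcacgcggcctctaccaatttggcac
The windows of Clec4e, Clec4d and Saa3 held 2, 3 and 4 C/EBP matches and no NF-kB match, and the window of Sod2 held 1 NF-kB match and no C/EBP match. The C/EBP pattern is common, with at least 1 match in 36.8% of 32851 promoter windows of this length, and the NF-kB consensus was in 3.90% of them. The share of windows with 2 or more matches was not computed. These matches are a description of the letters and were not tested as binding sites.

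Clec4e differed widely among the TNF-treated cells of every plate. Members made up 34.3% of the kept TNF cells of plate 2 (61 of 178), 29.7% of plate 3 (55 of 185), 46.3% of plate 4 (81 of 175) and 34.4% of plate 5 (62 of 180). Over all plates the share was 36.1% (exact Clopper-Pearson 95% interval 32.6 to 39.7%), with 32% in mouse 1 and 40.3% in mouse 2, so every plate contributed members and plate 4 had the most. Clec4e in the members ranged from 0 to 49.8 CPM with a median of 4.95 CPM, and 187 of the 259 were under 10 CPM. Of the members, 40 had no Clec4e fragment at all, where 3 fragments at the members' median depth amount to 6.57 CPM. The comparison cells ranged from 509 to 9349 CPM with a median of 1185 CPM.

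The members' Clec4e, held under 50 CPM by the choice, overlapped that of most cells that never saw TNF but was shifted upward within this range. No Clec4e fragment was found in 15.4% of members and 40.2% of IL4+IL13 cells. From 10 to under 50 CPM there were 72 of 259 members and 43 of 721 IL4+IL13 cells. The IL4+IL13 cells had a median of 2.07 CPM, and 658 of the 721 were under 50 CPM, while 4 reached 500 CPM. Cells just inside the limit for members had 49.4, 49.5 and 49.8 CPM and those just outside had 50.8, 53.9 and 53.9 CPM, so the limit crosses a continuous range. The highest cells below the comparison had 485, 486 and 498 CPM and the lowest in it 509, 518 and 521 CPM. These values chose the cells and are given as a description.

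**Figure D1:**
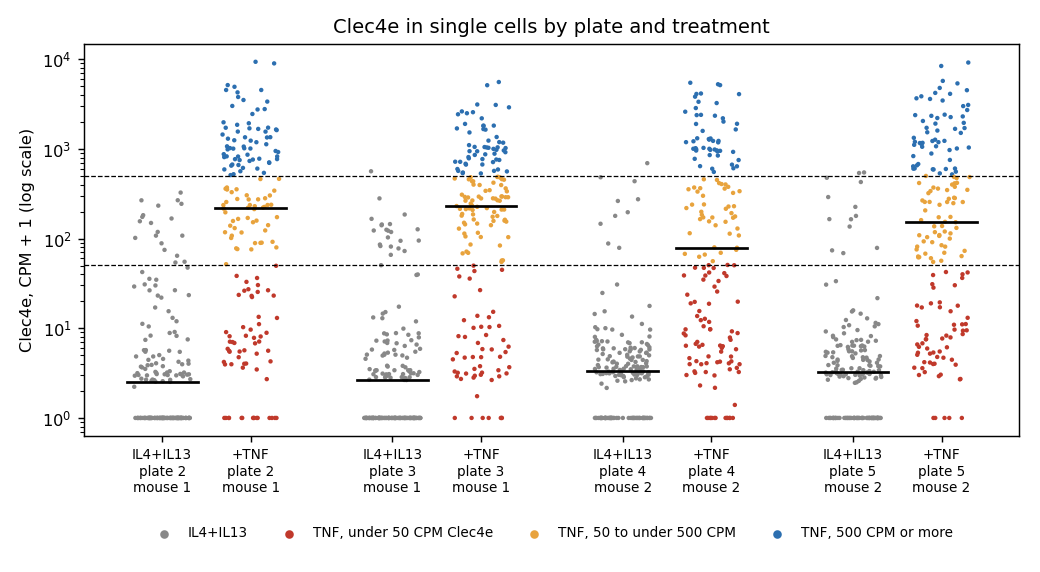
Clec4e in every kept cell (CPM + 1, log scale) by plate, mouse and treatment, with black bars at the medians and dashed lines at 50 and 500 CPM. TNF-treated cells spread from 0 to 9349 CPM, and the red cells under 50 CPM overlap the range of most IL4+IL13 cells (grey).

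Median depth and RNA quality differed little between the classes, while some single wells lay far from the medians. Median gene fragments per cell were 456370 in the members, 474442 in the high Clec4e cells and 477845 in the IL4+IL13 cells. The members had fewer detected genes (median 7805 against 8169 in the high cells). Their mitochondrial share (3.20% against 2.83%) and spike-in share (0.0564% against 0.0434%) were larger. The spike-in share reached 11.35% in single members, 0.3707% in high cells and 3.445% in IL4+IL13 cells. The lowest mitochondrial share was 0.0917% in members, 1.371% in high cells and 0.1026% in IL4+IL13 cells. The part of these differences in the results was not tested. After each cell was thinned to 200000 fragments, 256 TNF cells were under 50 CPM. Members were spread over the 8 well rows of the TNF cells, at 33.7 to 40.9% of the kept cells of a row.

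Most members carried macrophage markers. Csf1r, the receptor for CSF1, had a median of 1129 CPM in the members and 1084 CPM in the high cells, and Cd68, a lysosomal glycoprotein of macrophages, had 1243 and 1174 CPM. Cd14, a co-receptor for bacterial lipopolysaccharide, had 115 CPM in the members and 259 CPM in the high cells. Of 8 macrophage markers, Fcgr1 and Mertk had medians of 0 in both TNF classes and in the cells between them. The mean level of the 8 markers was lower in the members than in IL4+IL13 cells, by 0.45 ± 0.13 on the log2 scale (SD of 2 mice), and in the high cells by 0.19 ± 0.05. The lowest summed level of the 8 markers in a single cell was 189 CPM in members, 4304 CPM in high cells and 3203 CPM in IL4+IL13 cells. All markers of neutrophils, T or NK cells, B cells, mast cells or basophils, stromal cells and erythroid cells, and all 4 of monocytes, had medians of 0 in the members, and the 2 megakaryocyte markers had a summed median of 3.07 CPM, against 4.07 CPM in IL4+IL13 cells. Of 7 dendritic cell markers, 6 had medians of 0, but the summed level, which includes Ccr7, reached 11291 CPM in single members, against at most 175 CPM in the other TNF cells. The 12 cells behind this value are described below, and results that rest on them are given without them.

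The first question was whether the members showed a TNF response at other genes. For each cell the mean of log2(CPM + 1) was taken over 16 genes of NF-kB subunits and feedback inhibitors. The members' median was 4.0, 4.07, 4.04 and 4.02 on plates 2 to 5, against 2.72, 2.6, 2.63 and 2.58 in IL4+IL13 cells and 4.46, 4.14, 4.24 and 4.01 in high Clec4e cells. On every plate the members were well above the IL4+IL13 cells, and on plates 3 and 5 they were within 0.1 of the high cells. The difference from IL4+IL13 was 1.40 ± 0.04 (SD, n = 2 mice) for members and 1.58 ± 0.09 for high cells.

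The wider list of 38 TNF and NF-kB targets separated the classes more. The members' medians were 2.05, 2.28, 2.35 and 2.31, between those of IL4+IL13 cells (1.6, 1.6, 1.45 and 1.51) and those of high cells (3.05, 3.06, 2.73 and 2.73). The members differed from IL4+IL13 by 0.71 ± 0.20 and the high cells by 1.35 ± 0.15. With both lists joined, 69 of 259 members (26.6%) were at or below the 90th percentile of the IL4+IL13 cells of their plate, and 18 (6.95%) were at or below the median. For the high cells these numbers were 15 and 1 of 235.

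**Figure D2:**
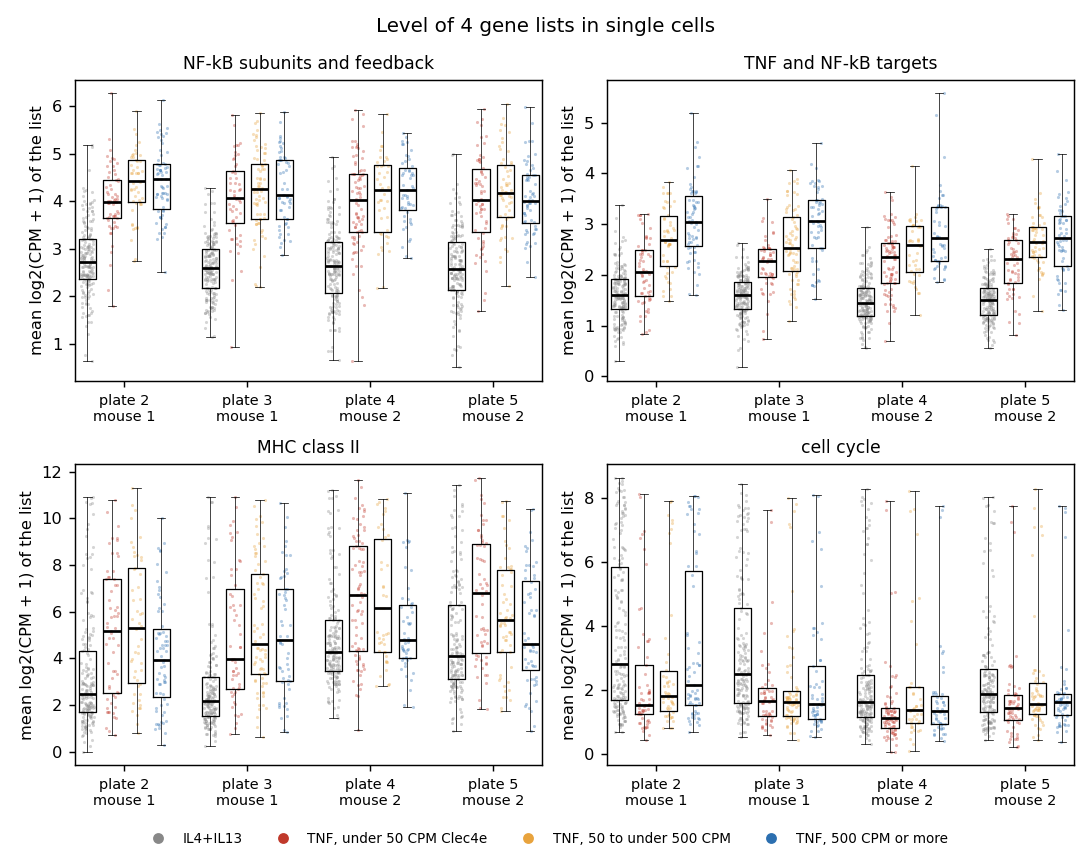
Mean log2(CPM + 1) per cell over 4 gene lists by plate and class (boxes: quartiles and median; whiskers: lowest and highest cell; points: cells). Members (red) lie above IL4+IL13 cells (grey) for both NF-kB lists, at 4.0 to 4.07 against 2.58 to 2.72 for subunits and feedback genes, and have the lowest medians for cell cycle genes on plates 2, 4 and 5.

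Single genes were tested on counts summed per class and mouse with edgeR's quasi-likelihood test, with the mouse as a block and Benjamini-Hochberg adjustment over 17250 genes. Between members and IL4+IL13 cells 8 genes passed at an adjusted p of 0.05 (0.0464% of those tested), all 8 higher (0.0464%) and none lower (0%), while 2731 genes had an unadjusted p under 0.05. A further 154 genes lay just above the threshold, since 162 had an adjusted p under 0.055, of which 96 were higher and 66 lower in the members. DESeq2 called 703 higher and 799 lower, and the edgeR test called 0 without the mouse as a block and 1003 with sums per plate. Leaving out 1 sum gave 1 call without the members of mouse 1, 0 without those of mouse 2 or without either IL4+IL13 sum, and 110 and 90 without the high cells of mouse 1 and mouse 2. Between high Clec4e cells and the same IL4+IL13 cells, 175 genes passed (1.01%), 104 higher (0.603%) and 71 lower (0.412%), and 0 to 3 with any 1 of the 6 sums left out. Both comparisons share the IL4+IL13 sums, so their values are set side by side here.

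The 8 genes that rose in the members were Relb, Bcl2a1a, Bcl2a1b, Bcl2a1d, Slamf8, Dcstamp, Ccr7 and Fscn1, of which the last 3 are described further on. Relb, the subunit of the alternative NF-kB pathway, had 7.5 and 10.7 CPM in the IL4+IL13 cells of mouse 1 and mouse 2, 46.8 and 65.2 CPM in the members, and 35.4 and 48.3 CPM in the high cells. Its log2 difference from IL4+IL13 was 2.62 ± 0.14 (SE) in the members (adjusted p = 0.029) and 2.20 in the high cells. The members' sums exceeded the IL4+IL13 sums in both mice, while single cells overlapped. Relb had a median of 8.08 CPM in members and 0 CPM in IL4+IL13 cells. At least 100 CPM was found in 16.6% of members and 3.19% of IL4+IL13 cells. The 12 Ccr7 cells described below held 32.9% of the members' Relb fragments, and without them the members had 42.1 and 39.5 CPM, above the high cells in mouse 1 and below them in mouse 2. Bcl2a1d, one of a set of near-identical genes for the BCL2 relative A1, which protects cells from apoptosis, rose by 4.14 ± 0.21 (1.77 and 4.29 CPM to 30.1 and 77.7 CPM), and Bcl2a1a and Bcl2a1b rose by 4.02 ± 0.21 and 2.85 ± 0.14. Fragments may be split between these copies, so their single values are uncertain. Slamf8, a membrane protein of activated macrophages, rose by 2.85 ± 0.15 from 20.2 and 28.6 to 171 and 176 CPM, and its sums in the high cells were 163 and 194 CPM. Each of these 5 genes had an adjusted p of 0.029. When these 12 cells were left out, Slamf8 kept an adjusted p of 0.048, while Relb (log2 difference 2.20, adjusted p = 0.053), Bcl2a1d (3.05, 0.053), Bcl2a1b (2.24, 0.053) and Bcl2a1a (2.94, 0.054) came just above the threshold.

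Of 16 genes for NF-kB subunits and feedback, Relb passed the test in members against IL4+IL13, where 0.0464% of all genes passed. All 16 had log2 differences above 0, as did 50.4% of all genes. Their median was 0.82 beside 0.0037 over all genes. Without the 12 Ccr7 cells none of the 16 passed and the median was 0.81. Among the inhibitors induced by NF-kB, Nfkbie (IκBε) had 11.9 and 6.73 CPM in IL4+IL13 cells, 74.5 and 68.2 CPM in members and 82.0 and 73.2 CPM in high cells. Nfkbia (IκBα) had 116 and 121 CPM, then 378 and 368 CPM, then 649 and 400 CPM in the same order. Tnfaip3 (A20), which removes ubiquitin chains from signalling proteins, had 8.99 and 17.3 CPM, then 52.4 and 63.5 CPM, then 63.5 and 64.5 CPM. The adjusted p of these 3 genes against IL4+IL13 was 0.050, 0.057 and 0.054, so none passed, although the sums did not overlap in any of the 3. In the high cells 5 of the 16 passed, all higher, where 0.603% of all genes were called higher. The median of the 16 was 0.86 beside -0.02 over all genes. For the TNF and NF-kB targets, 2 of 35 tested genes passed in members (Bcl2a1b and Bcl2a1d), where 0.0464% of all genes passed, and the median was 1.24 beside 0.0037 over all genes. In high cells 13 of the 35 passed, where 1.01% of all genes passed, and the median was 2.26 beside -0.02. Without the 12 Ccr7 cells none of the 35 passed in members, with a median of 1.21.

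The rule for named genes added 10 lower and 4 higher genes just above the threshold against IL4+IL13 (adjusted p = 0.050 each). The higher ones were Tnip3, an NF-kB inhibitor that binds A20 (144 and 171 CPM in IL4+IL13 cells, 443 and 440 CPM in members, 414 and 400 CPM in high cells), Il2rg, Cd52, a small surface glycoprotein (381 and 533, 1206 and 1368, 1011 and 1186 CPM), and Ctsz, a lysosomal protease (2518 and 2317, 4251 and 3956, 4772 and 4705 CPM). For Tnip3, Cd52 and Ctsz both TNF classes were above the IL4+IL13 cells in both mice. Of the lower ones, Mki67, Top2a, Cdca3, Nuf2 and Pclaf act in cell division. Hpgds, a prostaglandin D synthase, had 341 and 273 CPM in IL4+IL13 cells, 115 and 91.9 CPM in members and 163 and 155 CPM in high cells. Cd28 had 315 and 416, 51.4 and 103, and 73.7 and 139 CPM, and Wwp1, a ubiquitin ligase, had 235 and 256, 80.3 and 104, and 75.6 and 97.4 CPM. Tmem273 and the chemokine Ccl4 differed by -1.55 ± 0.12 and -1.27 ± 0.11.

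Members and high Clec4e cells were then compared directly. Apart from Clec4e itself, 1 of 17250 genes passed (0.00580%), higher in the members (0.00580%), and none was lower (0%). An unadjusted p under 0.05 was found for 2109 genes, DESeq2 called 403 higher and 379 lower, and edgeR called 97 with sums per plate and 0 without the mouse as a block. The 1 call was lost when any 1 sum other than the members of mouse 1 was left out. The gene that passed, Ccr7, reached 100 CPM in 12 cells and is taken up below. The genes named next were taken by the smallest unadjusted p among genes of the same direction on all 4 plates that were found in at least 25% of cells, or from the gene lists, and their differences did not pass the adjusted threshold.

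The 10 genes with lower values in members that the rule gave were Saa3, Sod2, C5ar1, Clec4d, Lyz2, Acsl1 and Tuba4a and the cell cycle genes Top2a, Pclaf and Mki67. Saa3, an acute-phase serum amyloid protein, had 0.616 and 1.53 CPM in IL4+IL13 cells, 13.6 and 23.9 CPM in members and 325 and 327 CPM in high cells, a log2 difference between members and high cells of -4.21 ± 0.34 (adjusted p = 0.104). The sums of Saa3 were thus lowest without TNF and intermediate in members of both mice, with no overlap between the sums of the classes. At 200000 fragments it was found in 22.2 to 38.7% of the members by plate and in 52.9 to 64.9% of the high cells, against 2.21 to 11.5% of the IL4+IL13 cells. Sod2, the mitochondrial superoxide dismutase, had 132 and 128 CPM in IL4+IL13 cells, 347 and 256 CPM in members and 842 and 749 CPM in high cells (-1.41 ± 0.12, adjusted p = 0.121). Among genes of the lists, Acod1, which makes itaconate, had 1.08 and 9.0, 43.5 and 137, and 249 and 384 CPM in the same order. Tlr2, a receptor for bacterial lipoproteins, had 57.8 and 48.6 CPM in members and 112 and 126 CPM in high cells.

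C5ar1, the receptor for complement C5a, had 404 and 161 CPM in members against 784 and 308 CPM in high cells (-0.95 ± 0.08, adjusted p = 0.104), and its IL4+IL13 sums of 612 and 239 CPM lay between them. Lyz2, lysozyme of myeloid cells, had 16270 and 18220 CPM in members, 33460 and 28610 CPM in high cells and 11310 and 12200 CPM in IL4+IL13 cells. Acsl1, an acyl-CoA synthetase, had 56.7 and 62.3 CPM in members and 119 and 123 CPM in high cells. Tuba4a, an alpha-tubulin, had 27.3 and 15.9 CPM against 62.2 and 40.6 CPM. Of the chemokines in the lists, Cxcl2 had 200 and 47.7 CPM in members and 433 and 103 CPM in high cells, so mouse 2's high cells were below mouse 1's members. Cxcl10, found in few cells of any class, had 0.631 and 0.0974 CPM in members, 35.5 and 5.95 CPM in high cells and 15.4 and 0.952 CPM in IL4+IL13 cells.

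**Figure D3:**
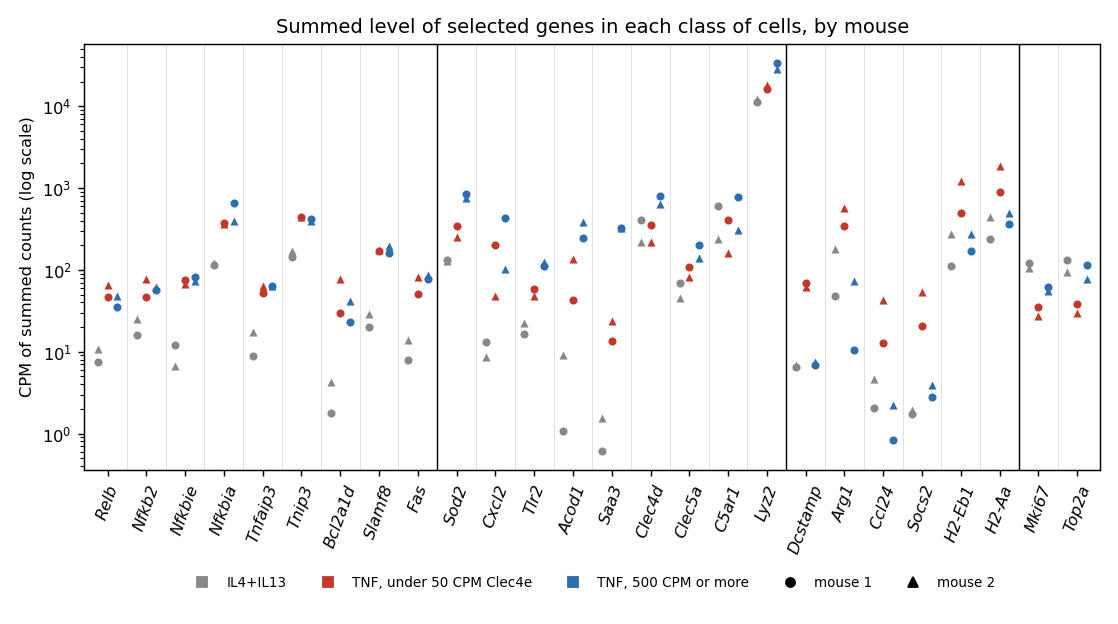
CPM of summed counts (log scale) for IL4+IL13 cells (grey), members (red) and high Clec4e cells (blue) of mouse 1 (circles) and mouse 2 (triangles). From left to right, the first block holds genes above IL4+IL13 cells in both TNF classes. Of these, Nfkbia had 378 and 368 CPM in members and 649 and 400 CPM in high cells. The next blocks hold genes lower in members than in high cells, genes higher in members, and cell cycle genes. Saa3 goes from 13.6 and 23.9 CPM in members to 325 and 327 CPM in high cells.

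Genes of the Mincle pathway other than the receptor showed no shared shift between members and high cells. The mean level of 15 such genes was above that of IL4+IL13 cells by 0.69 ± 0.11 (SD, n = 2 mice) in members and by 0.70 ± 0.05 in high cells. None of the 15 genes of related lectins and their signalling passed between members and high cells. Of the 15, 8 had a difference above 0, where 50.4% of all genes did, and the median was 0.04. Clec4d, the neighbour of Clec4e, had 358 and 222 CPM in members, 807 and 631 CPM in high cells and 407 and 222 CPM in IL4+IL13 cells, so the members were at the IL4+IL13 level (log2 difference -0.10 ± 0.14) and the high cells above it. Clec5a, a receptor that signals through DAP12, had 109 and 82.6 CPM in members and 200 and 139 CPM in high cells. Clec4a2, the inhibitory receptor DCIR, went the other way, with 171 and 168 CPM in members, 91.2 and 64.3 CPM in high cells and 75.9 and 76.6 CPM in IL4+IL13 cells. The signalling genes were close between the classes: Fcer1g had 2465 and 2392 CPM in members and 2626 and 2593 CPM in high cells, and Syk had 142 and 189 against 138 and 183 CPM.

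Transcripts of both TNF receptors were found in most members. Tnfrsf1a (TNFR1) had 76.2 and 58.4 CPM in members, 78.6 and 95.4 CPM in high cells and 104 and 93.4 CPM in IL4+IL13 cells. Tnfrsf1b (TNFR2) had 234 and 269 CPM in members and 261 and 320 CPM in high cells. The 2 receptor genes were lower in the members of both mice, by log2 differences of -0.38 ± 0.19 and -0.20 ± 0.20, and neither passed. Of the 25 genes of receptors and proximal signalling none passed between members and high cells, and the median difference was -0.00027. Birc3, an NF-kB-induced ubiquitin ligase of the TNF receptor complex, had 133 and 148 CPM in members, 125 and 154 CPM in high cells and 27.9 and 52.2 CPM in IL4+IL13 cells.

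Dcstamp, which encodes a membrane protein required for macrophage fusion, passed against IL4+IL13 cells with and without the Ccr7 cells. Its sums were 69.3 and 62.6 CPM in members, 6.88 and 7.39 CPM in high cells and 6.54 and 6.89 CPM in IL4+IL13 cells. Members of both mice were above both other classes, which differed from each other by 0.09 on the log2 scale. Dcstamp rose against IL4+IL13 by 3.30 ± 0.17 (adjusted p = 0.029) and differed from high cells by 3.21 ± 0.17, which did not pass (adjusted p = 0.063). It was carried by a minority: 13.1, 14.6, 19.8 and 21% of the members of plates 2 to 5 had at least 100 CPM, against 0, 5.26, 3.92 and 1.67% of the high cells and 1.11 to 2.21% of IL4+IL13 cells. Cells between 50 and 500 CPM of Clec4e had 6.00 to 17.2%, between the members and the high cells on plates 2 to 5. None of the 12 Ccr7 cells reached 100 CPM of Dcstamp, and without them Dcstamp kept its difference from IL4+IL13 (3.36, adjusted p = 0.048).

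The mean level of the M2 list differed from IL4+IL13 cells by -0.03 ± 0.04 (SD, n = 2 mice) in members and by -0.31 ± 0.009 in high cells. Its genes moved in both directions. In the sums, 11 of 25 tested genes were above IL4+IL13 in members (median log2 difference -0.36) and 7 in high cells (median -1.01). None of the 25 tested genes of the list passed in members, where 0.0464% of all genes passed. In high cells 2 passed (Clec10a and Mrc1), both lower, where 0.412% of all genes were called lower. Between members and high cells, 23 of the 25 differences were above 0, where 50.4% of all genes were. The median was 0.79 beside 0.0035 over all genes, and none of the 25 passed. Clec10a, a galactose-binding lectin, had 254 and 343 CPM in IL4+IL13 cells, 85.8 and 169 CPM in members and 63.6 and 76.9 CPM in high cells. Mrc1, the mannose receptor, had 1187 and 1214, then 664 and 893, then 456 and 648 CPM. Both genes thus had intermediate sums in the members. Retnla, which encodes RELMα, had 82.0 and 494 CPM in IL4+IL13 cells, 32.7 and 45.9 CPM in members and 0.442 and 9.98 CPM in high cells.

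Arg1 and Ccl24 behaved differently from these. Arg1, which encodes arginase 1, had 48.5 and 180 CPM in IL4+IL13 cells, 341 and 578 CPM in members and 10.4 and 72.3 CPM in high cells (members against high 4.01 ± 0.54, adjusted p = 0.245). At least 100 CPM of Arg1 was found in 14.8, 21.8, 16.1 and 22.6% of the members of plates 2 to 5, in 8.84 to 12.6% of IL4+IL13 cells and in 1.75 to 8.33% of high cells. The members' share was above both others on every plate. Ccl24 (eotaxin-2) had 12.8 and 42.9 CPM in members, 0.832 and 2.24 CPM in high cells and 2.04 and 4.63 CPM in IL4+IL13 cells. Other genes with higher values in members were Rnase2a, a ribonuclease (179 and 463 against 45.8 and 91.8 CPM in high cells), Fcrls (24.7 and 43.5 against 6.95 and 11.6 CPM), Clec4b1 (26.9 and 40.7 against 4.48 and 5.24 CPM), Slc34a2, a phosphate transporter (184 and 318 against 63.8 and 125 CPM), Il6st, the shared receptor chain gp130 (91.9 and 133 against 40.5 and 65.8 CPM) and Mmp12, the macrophage elastase (1388 and 1041 against 763 and 534 CPM). Adjusted p between members and high cells was 0.104 to 0.181 for these 6 genes. Clec4b1 and Il6st in members were close to IL4+IL13 cells, at log2 differences of 0.24 ± 0.20 and 0.03 ± 0.11, whereas Mmp12 differed by 1.22 ± 0.10. Socs2, a suppressor of cytokine signalling, had 20.9 and 53.3 CPM in members and 2.76 and 3.94 CPM in high cells. The 12 Ccr7 cells held 59.8% of the members' Socs2 fragments, and without them the members had 12.5 and 20.2 CPM.

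MHC class II genes, which present peptides to CD4+ T cells, had higher sums in members than in high Clec4e or IL4+IL13 cells. All 7 genes had differences above 0 against both, where 50.4% of all genes did in either comparison. The medians were 1.07 against high cells and 1.49 against IL4+IL13 cells, and none passed. Without the 12 Ccr7 cells the medians were 0.81 and 1.15. H2-Eb1 had 494 and 1215 CPM in members, 169 and 273 CPM in high cells and 113 and 277 CPM in IL4+IL13 cells, and H2-Aa had 892 and 1840, 363 and 496, and 238 and 447 CPM. The median list level of the members was 5.18, 3.99, 6.71 and 6.81 on plates 2 to 5, against 3.93, 4.79, 4.78 and 4.62 in high cells, so plate 3 went the other way. The TNF cells between 50 and 500 CPM of Clec4e had 5.31, 4.62, 6.14 and 5.63, above the members on plates 2 and 3 and below them on plates 4 and 5. The 12 Ccr7 cells held 42.2% of the members' H2-Eb1 fragments, and without them the sums were 342 and 724 CPM and the log2 difference from high cells 1.20 in place of 1.84. They held 37.65% of the members' H2-Aa fragments, and without them its sums were 695 and 1147 CPM.

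Cell cycle genes had lower sums in the members. All 20 genes were below the IL4+IL13 cells, with a median of -1.16 beside 0.0037 over all genes. Against the high cells 19 were lower (median -0.52), and none passed in either comparison. Over all genes, 50.4% of the differences were above 0 in either comparison. Top2a, the DNA topoisomerase of dividing cells, had 131 and 93.8 CPM in IL4+IL13 cells, 38.6 and 30.1 CPM in members and 114 and 77.3 CPM in high cells. Mki67, which encodes the proliferation marker Ki-67, had 123 and 105, then 35.3 and 27.7, then 62.1 and 55.8 CPM. At least 100 CPM of Mki67 was found in 3.64 to 13.1% of the members by plate, in 8.77 to 25.4% of high cells and in 17.8 to 31.5% of IL4+IL13 cells. On each plate the members' share was below both others.

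A small set of 12 members stood apart from the rest. They had at least 100 CPM of Ccr7, the chemokine receptor that guides dendritic cells to lymph nodes, with 128 to 11148 CPM and a median of 5512 CPM. No other kept cell of either treatment exceeded 22.9 CPM. Of the 12, 1 was on plate 2, none on plate 3, 8 on plate 4 and 3 on plate 5, so mouse 2 contributed 11. In the sums Ccr7 had 63.0 and 473 CPM in members, 0.301 and 1.56 CPM in high cells and 0.107 and 0.451 CPM in IL4+IL13 cells, and it rose by 8.05 ± 0.26 against high cells (adjusted p = 0.010) and by 9.73 ± 0.28 against IL4+IL13 cells (adjusted p = 0.010). Ccr7 was named after its values were seen, since it was found in fewer cells than the rule for named genes asks.

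These 12 cells shared a set of genes, chosen here after their values were seen. Fscn1, which encodes the actin-bundling protein fascin, had a median of 289 CPM in the 12 cells and at most 9.23 CPM in the other 247 members. It was the last of the 8 genes that passed against IL4+IL13 (adjusted p = 0.029). Its sums were 3.73 and 21.4 CPM in members and 0.0161 and 0.0544 CPM in IL4+IL13 cells, the latter a few fragments. Fscn1 passed the gene filter only with these 12 cells included, so its call rests on them. Ccl22, a ligand of CCR4, had a median of 6756 CPM in them and at least 100 CPM in 11 of the 12, against 6 of the other 247 members. Aldh1a2, which makes retinoic acid, had a median of 4880 CPM, Cd83 of 3267 CPM and Relb of 428 CPM. Macrophage markers were low in most of the cells: Csf1r reached 100 CPM in 1 of 12 cells and in 240 of the other 247 members, Adgre1 (F4/80) in 1 of 12 and 231 of 247, and Lyz2 had medians of 352 and 14350 CPM. The cells' depth was ordinary, with 334340 to 672606 gene fragments. Ccr7 is itself 1 of the 7 dendritic cell markers used here. Of the other 6, Zbtb46 reached 100 CPM in 2 of the 12 cells and in 5 of the other 247 members, and Flt3 was at most 76.2 CPM in the 12 and 27.4 CPM in the others. Xcr1 and Clec9a were at 0 in all 12, and Siglech and Cd209a were at most 1.84 and 1.71 CPM. The cells are described by their leading gene and given no cell type.

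**Figure D4:**
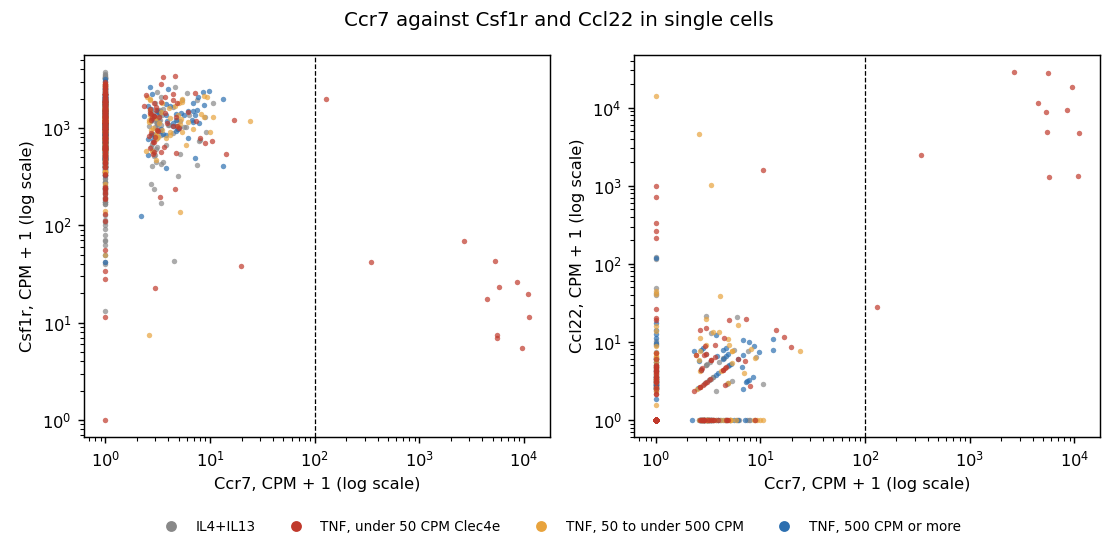
Ccr7 against Csf1r (left) and against Ccl22 (right) in every kept cell, both as CPM + 1 on log scales, with a dashed line at 100 CPM of Ccr7. The 12 cells to the right of the line are all members, and 11 of them have under 100 CPM of Csf1r and at least 100 CPM of Ccl22.

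Leaving out these cells ended the Ccr7 call, and Fscn1 then failed the gene filter and was not tested. The calls against IL4+IL13 fell from 8 to 2 (Slamf8 and Dcstamp) and those against high cells from 1 to 0. Leaving them out moved Cd83 from 1.76 to 0.23 and Relb from 0.42 to -0.01 in the comparison with high cells. Saa3 (-4.26) and Sod2 (-1.40) kept their values.

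In the remaining lists no gene passed in members against either class. Between members and high cells 50.4% of all genes were above 0. Among 10 genes of the IL4 receptor and STAT6, 8 were above 0 in this comparison (median 0.47). Il2rg, the common gamma chain, had 116 and 120 CPM in IL4+IL13 cells, 266 and 280 CPM in members and 357 and 347 CPM in high cells, while Stat6 had 159 and 146 CPM in members and 163 and 147 CPM in high cells. All 9 tested AP-1 genes had differences above 0 between members and high cells (median 0.53), and Atf3 had 445 and 462 CPM in members and 278 and 234 CPM in high cells. Of 17 interferon genes 9 were above 0 (median 0.07). All 9 tested genes of the C1q list were above 0 against high cells (median 0.44), and the mean level of the list differed from IL4+IL13 cells by -0.62 ± 0.22 (SD, n = 2 mice) in members and -0.67 ± 0.29 in high cells. Selenop, a selenium carrier, had 188 and 358 CPM in members, 186 and 254 CPM in high cells and 696 and 943 CPM in IL4+IL13 cells. The lipid-handling list had a median of 0.17 and the stress list of -0.27 against high cells, and Hmox1, heme oxygenase 1, had 330 and 263 CPM in members and 519 and 426 CPM in high cells.

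Across all kept TNF cells, the rank correlation with Clec4e was computed on each plate for 8178 genes found in at least 25% of cells, as a description. The points are cells that share a plate, library depth varies among them, and genes are not independent. The 10 genes with the highest median over 4 plates were Sod2 (0.49), Clec4d (0.48), Acod1 (0.41), Fth1 (0.40), Cybb (0.37), Cd302 (0.34), Ninj1 (0.34), Lyz2 (0.33), Lyz1 (0.32) and Saa3 (0.32). Several act in host defence, as Cybb is the core of the phagocyte NADPH oxidase and Fth1 stores iron. Sod2 ranged from 0.48 to 0.56 and Clec4d from 0.41 to 0.52 over the plates, so their ranges overlapped. The 5 lowest were Abcg1 (-0.30), a cholesterol exporter, Cst3 (-0.29), which encodes cystatin C, Cd74 (-0.25), Atp6v0a1 (-0.24) and Gpx1 (-0.24). Cd74, the invariant chain of MHC class II, was 0.01 on plate 3 and -0.22 to -0.28 on the others. Fragments of Lyz1 and Lyz2 may be exchanged, as the genes are near-identical.

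As a last description, each cell's 20 nearest neighbours on its plate were found in 30 components of the 2000 most variable genes, without Clec4e. Of the members' neighbours, 16.6, 9.73, 18.3 and 18.7% were IL4+IL13 cells on plates 2 to 5, where such cells made up 49.2 to 51.4% of the plate. For high Clec4e cells the shares were 7.76, 7.46, 7.35 and 5.92%, lower than the members' on every plate. A majority of IL4+IL13 neighbours was found for 2, 2, 4 and 3 members. The members' neighbours were other members at 32.7, 21.8, 38.4 and 22.7% (plate shares 17, 15, 22.5 and 17.5%) and high Clec4e cells at 28.7, 26.6, 20.4 and 23.1% (18.7, 15.6, 14.2 and 17%). By this measure most members lay among TNF-treated cells, and few among IL4+IL13 cells.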

How the data were processed

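Single BMDMs from 2 mice were profiled by Smart-seq2. The authors aligned fragments to mm10 with gsnap and deposited counts of uniquely mapped fragments per Ensembl gene and well, made with featureCounts 1.6.3 per the submitters' processing notes, not normalized and without use of strand. A total of 1524 columns were mapped to samples by the well name in the title, 11 other columns of the table were not used, 4 samples had no group, and 92 spike-in rows were left out. Of 55421 genes 55154 had a symbol.

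Cells with at least 200000 gene fragments, 5000 genes and at most 10% mitochondrial fragments were kept; doublets were not called. The members, gene lists and rules were chosen with earlier results of these data known. Counts were summed per mouse and class (6 sums) and tested with edgeR 4.0.16 (glmQLFit, TMM, mouse as a block, filterByExpr, Benjamini-Hochberg) in R 4.3.3; the test was checked on simulated counts. CPM of sums use TMM library sizes, and values per plate or cell use gene fragments. The mouse pairs the sums, since the classes of a mouse share its marrow and plates; deviations between mice correlated with r = 0.32 to 0.42 across 17251 genes. Named genes were the listed genes, and, for members against either class, up to 10 per direction by fold among those past the threshold, filled up to 10 by unadjusted p, of the same sign on all 4 plates and found in at least 25% of cells of the higher class, predicted genes left out. Of genes sharing a symbol the one with more fragments was used. Alternatives were no block, sums per plate, DESeq2 1.42.0, library size, no gene filter, thinning, other limits for classes and cells, leaving out each sum and, chosen after seeing the data, leaving out the Ccr7 cells. Python 3.11.15 with scikit-learn 1.9.0 was used for neighbours. Cells per mouse are not separate cultures as far as the labels say, so p-values cover the spread between 2 mice.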

Additional observations from a re-analysis of the deposited data

Results flagged for a closer look

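The median level of the C1q and resident-type macrophage list in the members of plate 3 was 4.23, apart from 4.50 to 4.55 on the other 3 plates. Chance gives such a gap in about 1 of 20 sets of 4, and 17 sets were looked at. The high Clec4e cells of plate 3 had the same median of 4.23, against 4.36, 4.52 and 4.51 on plates 2, 4 and 5.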

How the results depend on the processing

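The counts of genes called depend on the fit, and 2 mice leave few degrees of freedom. Each triple below gives the genes called in members against high Clec4e cells, in members against IL4+IL13 and in high cells against IL4+IL13, where 1, 8 and 175 are the reported counts. Without the mouse as a block (no pairing) the counts were 0, 0 and 0 by edgeR (1009, 1443 and 1563 genes at an unadjusted p under 0.05), with sums and a block per plate 97, 1003 and 1252, and with DESeq2 782, 1502 and 1794. With cells thinned to 200000 fragments they were 20, 453 and 509, and with members under 100 CPM 2, 215 and 306. With no gene filter members gave 14 and 236, and with comparison cells at 1000 CPM or more 2 and 79. Library size in place of TMM gave 123 in members against IL4+IL13. Members under 20 CPM gave 94, and cells with at least 400000 fragments 30, in high cells against IL4+IL13. Without the Ccr7 cells, an alternative chosen after seeing the data, the members gave 0 and 2. Leaving out 1 sum gave 0 to 1, 0 to 110 and 0 to 3. Those fits leave 1 class with a single sum, whose spread is taken from the remaining ones. Of 20 named genes in each comparison none turned direction in any setting, with or without the block. These genes were chosen from the same data for having the same sign on every plate, and many of them by p. Their stable direction was thus largely fixed by the choice, so it is no independent check of the settings. Members were 29.8% of TNF cells at a limit of 20 CPM and 41.9% at 100 CPM. The TNF target level of members exceeded IL4+IL13 by 0.91, and by 0.49 with a pseudocount of 10 CPM. The cause of these shifts was not tested. At this depth a gene at a few CPM is missed in many cells.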
